A study of Mus musculus with 18 samples.

Results

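The genes described here are the 8 mRNA decay factors Zfp36, Zfp36l1, Zfp36l2, Btg1, Btg2, Btg3, Tob1 and Tob2, chosen by gene name from the 20207 genes listed for every sample. All 8 are listed in all 18 samples, 7 of them were read in every sample and could be tested, and Btg3 had at most 8 reads in a sample. The samples are mRNA-seq libraries of NIH3T3 cells, an established line of mouse fibroblasts, with a stably integrated transgene for a destabilizing domain fused to GFP (DD-GFP) and sorted for high GFP. The question asked of the comparisons is how the cells' transcripts respond to heat shock (HS), which unfolds proteins in the cytosol and nucleus, and to tunicamycin (Tu), which blocks N-linked glycosylation so that proteins misfold in the endoplasmic reticulum. The groups are control cells at the normal culture temperature without tunicamycin, HS for 45 min, HS for 135 min, and tunicamycin for 45, 135 and 405 min, with 3 samples in each. All 6 groups share the DD-GFP transgene and the Shield-1 ligand that keeps its domain folded, so no group is free of the transgene.

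ZFP36 proteins are zinc finger proteins that bind AU-rich elements in the 3′ UTRs of short-lived mRNAs, such as those of cytokines and growth factors, and recruit the CCR4-NOT complex to shorten the poly(A) tail. BTG and TOB proteins share a domain that binds the deadenylase subunits of the same complex, and TOB proteins also bind the poly(A)-binding protein. In fibroblasts several of these genes are known as early response genes, whose transcripts are made quickly after serum or stress and are themselves short-lived.

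Depth was 33415592 to 66478268 reads on genes per sample, and levels are given in CPM, counts scaled by library size and TMM over all 18 samples, or in RPKM, the authors' per-length unit, where genes are compared with each other. A level of 3 reads was 0.0451 to 0.0898 CPM, which covers counting error only. All 8 fibroblast markers examined were at 1 RPKM or more in every sample, and the 12 epithelial, endothelial and muscle markers were below 1 RPKM in all. The summed RPKM of the fibroblast markers was 4324 to 4823 at 405 min of tunicamycin and 9150 to 9636 in the control, and its part in the values below was not tested. The last time of each treatment carried its known mark. Hspa1b, a heat shock chaperone, was induced at 135 min of HS by 7.24 on the log2 scale (adjusted p = 0.0058, edgeR). Hspa5, the main chaperone of the endoplasmic reticulum, was induced at 405 min of tunicamycin by 3.73 (adjusted p = 4.64e-06, edgeR). Earlier times were less clear. At 45 min of HS Hspa1b changed by 4.99 and was not called (adjusted p = 0.192, edgeR). At 135 min of tunicamycin Hspa5 lay below every control sample (-0.72, adjusted p = 0.135, edgeR). Mean levels of the stress gene Ddit3 were 71.9 CPM in the control and 542, 208 and 2630 CPM at 45, 135 and 405 min of tunicamycin. Libraries of a group also differed along an axis tied to the GC content of transcripts, described after the members. In bulk samples fewer cells of a type and less RNA per cell cannot be told apart.

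The ZFP36 genes carry in their own 3′ UTRs the element their proteins bind, so the sites are shown first. In the GENCODE vM1 annotation of mm9, the longest annotated 3′ UTRs of Zfp36 (774 bases), Zfp36l1 (1829 bases) and Zfp36l2 (1822 bases) each hold the heptamer TATTTAT 3 times, counted on the transcript strand, and each holds the longer TTATTTATT 1 time. As many heptamers are found in 1.04%, 3.71% and 3.73% of the annotated 3′ UTRs within 20% of the same length, and 23.9% of all 19915 annotated 3′ UTRs hold at least 1. The longer element is found in 3.86%, 8.87% and 8.84% of those of like length. Btg2 (2199 bases) and Tob2 (2459 bases) each hold 1 heptamer, as many as in 39% and 41.1% of those of like length. Btg3 (439 bases) holds 2, as many as in 1.8%, so such a count is not particular to the ZFP36 genes. The sites of Btg3 are not shown. Btg1 (4170 bases) and Tob1 (767 bases) hold none. The lines below give 1 site of each ZFP36 gene, the one inside the longer element, and the single sites of Btg2 and Tob2 for contrast, on the minus strand of mm9 at chr7:29161972-29161996, chr12:81209156-81209180, chr17:84584256-84584280, chr1:135973828-135973852 and chr15:81680292-81680316 in that order, with the heptamer in capitals.
Zfp36: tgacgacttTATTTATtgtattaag
Zfp36l1: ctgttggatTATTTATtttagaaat
Zfp36l2: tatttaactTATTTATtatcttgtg
Btg2: atgaagagcTATTTATacatgtttt
Tob2: tcacctgctTATTTATgtacgaggt
A match is a description of these letters only, and no binding was measured.

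Upstream of the start sites, sequence was compared because Zfp36l1, Btg1 and Btg2 were all induced at 405 min of tunicamycin. RefSeq promoters (GRCm38.p6) were matched for 7 of the 8 genes by symbol. The 250 bases before each start were searched on both strands for the heat shock element GAANNTTC and a longer form of it. The cAMP response element TGACGTCA, the C/EBP-ATF element TGATGNAA, the endoplasmic reticulum stress element and the CArG box bound by serum response factor were searched likewise. So was TGANTCA, a loose form of the AP-1 site that allows any middle base. TATAAA was searched on the strand of the gene only. No match to either heat shock element lay in these windows, against 6.7% of all 32841 promoter windows for the shorter form. Zfp36 held a CArG box 58 to 49 bases before its start (1.47% of all windows hold one). Zfp36l1 held a match to the loose form TGANTCA, read as TGATTCA, 129 to 123 bases before (6.75%). Btg2 held a cAMP response element 166 to 159 bases before (1.55%). TATAAA was found in Zfp36l1, Btg1 and Tob1 (7.59% of all windows). Btg1 held no other match though it too was induced at 405 min of tunicamycin, and its window is not shown. The windows of Zfp36l1 at chr12:80113014-80113263 and Btg2 at chr1:134079156-134079405, both on the minus strand of GRCm38.p6, are given 5′ to 3′. The TGANTCA match and the cAMP response element are in capitals.
Zfp36l1: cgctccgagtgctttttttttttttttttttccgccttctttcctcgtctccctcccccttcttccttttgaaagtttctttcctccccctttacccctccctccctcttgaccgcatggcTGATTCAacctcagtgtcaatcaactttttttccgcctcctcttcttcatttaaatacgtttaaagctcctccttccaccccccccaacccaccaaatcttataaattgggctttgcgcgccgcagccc
Btg2: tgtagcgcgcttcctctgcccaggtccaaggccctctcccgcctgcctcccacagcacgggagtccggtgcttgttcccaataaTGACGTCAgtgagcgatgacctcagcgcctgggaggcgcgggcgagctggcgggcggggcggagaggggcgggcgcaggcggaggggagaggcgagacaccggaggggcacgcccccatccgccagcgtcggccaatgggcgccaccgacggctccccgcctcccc

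In unstressed cells Zfp36l2 was the most abundant of the 8 transcripts per length, at 99.4 ± 17.7 RPKM (SD, n = 3), followed by Zfp36l1 at 36.6 ± 7.57, Tob2 at 19.8 ± 3.15, Btg1 at 14.9 ± 1.85, Zfp36 at 11.3 ± 1.31, Tob1 at 6.97 ± 1.28 and Btg2 at 2.07 ± 0.285 RPKM (each SD, n = 3). No 2 neighbours in this order overlapped in their 3 control samples. The order changed under both stresses, with Zfp36l1 first at 135 min of HS and at 45 and 405 min of tunicamycin, above every Zfp36l2 sample of the same group. Zfp36l1 and Zfp36l2 overlapped at 45 min of HS and at 135 min of tunicamycin.

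Against control, 2 of the 7 tested genes were called at 135 min of HS, 2 at 45 min of tunicamycin and 4 at 405 min of tunicamycin, where called means an adjusted p under 0.05 from edgeR's quasi-likelihood test over 12731 genes. After HS for 135 min Zfp36l1 was induced 6.95-fold and Zfp36l2 repressed 2.31-fold, while 4.75% of all genes tested were induced and 2.64% repressed. At 45 min of tunicamycin Btg2 was induced 1.69-fold and Zfp36l2 repressed 2.07-fold, against 4.01% and 2.17% of all genes. By 405 min of tunicamycin Btg2 (2.67-fold), Zfp36l1 (1.5-fold) and Btg1 (1.41-fold) were induced and Zfp36l2 was repressed 2.37-fold, in a comparison that called 23.3% of all genes as induced and 23.5% as repressed. The count of 4 of 7 there is near that background.

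No tested gene was called at 45 min of HS, where edgeR's quasi-likelihood test called 0% of all genes in either direction, although 5 of the 7 and 2480 of all genes had an unadjusted p under 0.05. The DESeq2 Wald test and edgeR's exact test each called 2 of the 7 there, Zfp36l1 and Tob2. Over all genes DESeq2 called 386 as higher and 65 as lower and the exact test 251 and 39. Without HS replicate 3 the quasi-likelihood test called 2737 genes as higher and 3049 as lower. Calls in that fit, given below for single genes, are read against those counts. At 135 min of tunicamycin 0 of the 7 were called by the quasi-likelihood test, against 0.126% of all genes as induced and 0.00785% as repressed. An unadjusted p under 0.05 was found for 4 of the 7 and for 18.6% of all genes. DESeq2 called Zfp36, Zfp36l1 and Btg2 there, and the exact test Zfp36 and Zfp36l1. Over all genes DESeq2 called 329 as higher and 336 as lower there, and the exact test 305 and 242. The labels do not say whether the 3 samples of a group came from separate cultures, so the p-values measure the spread between these samples, which may be technical.

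**Figure D1:**
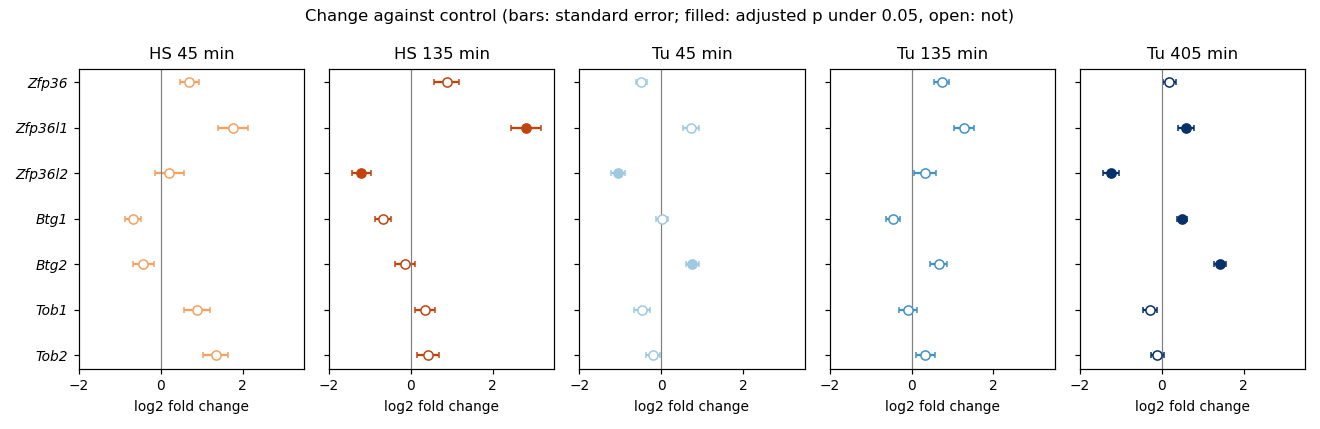
Log2 fold change against control (horizontal axis) of the 7 tested genes in the 5 stress groups of 3 samples, with standard error bars and filled points where the adjusted p was under 0.05. Zfp36l2 lies left of 0 with a filled point in 3 of the 5 panels, and Btg2 lies furthest right at 405 min of tunicamycin (1.42).

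The members' median log2 fold change was 0.704 at 45 min of HS and 0.341 at 135 min of HS, beside medians over all genes tested of -0.0319 and -0.02. At 45, 135 and 405 min of tunicamycin it was -0.193, 0.342 and 0.179, beside -0.00375, -0.00288 and -0.0121 over all genes. Fold changes of both signs were found among the 7 in every comparison with control. The groups of 3 did not overlap for 5, 4, 5, 4 and 3 of the 7 genes in these 5 comparisons in the same order, where 25.4%, 37.2%, 33.2%, 27.3% and 58.7% of all genes did not overlap.

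Among the ZFP36 genes, Zfp36l1, at chr12:81208747-81214000 of mm9 with 1 intron, had the largest rise under HS. It was at 164, 117 and 105 CPM in control replicates 1, 2 and 3, at 521, 554 and 235 CPM at 45 min of HS, and at 521, 1245 and 913 CPM at 135 min of HS. Every HS sample lay above every control sample, and replicate 3 at 45 min and replicate 1 at 135 min were the lowest of their groups. The log2 fold change was 1.76 at 45 min (standard error, SE, 0.368, adjusted p = 0.227, edgeR) and 2.80 at 135 min (SE 0.365, adjusted p = 0.0127, edgeR). At 45 min it was 1.0 with 1 surrogate variable (adjusted p = 0.00164) and 0.90 without replicates 1 and 2 of HS (adjusted p = 0.998, edgeR), which leaves 1 HS library that is assumed to vary like the control. The call at 135 min was kept in 11 of 12 alternative fits. It was lost without control replicate 2 (2.73, adjusted p = 0.0917), control replicate 3 (2.67, adjusted p = 0.086) or HS replicate 3 (2.78, adjusted p = 0.0808, all edgeR).

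Under tunicamycin Zfp36l1 was at 203, 183 and 250 CPM at 45 min, 398, 254 and 283 CPM at 135 min and 161, 211 and 200 CPM at 405 min. All samples at 45 and 135 min lay above the control, and 1 sample at 405 min fell inside the control range. The fold changes were 0.73 (SE 0.199, adjusted p = 0.0693), 1.29 (SE 0.242, adjusted p = 0.0854) and 0.59 (SE 0.196, adjusted p = 0.0377) on the log2 scale by edgeR's quasi-likelihood test, which called the last of these. DESeq2 (adjusted p = 0.0228), the exact test (0.0152), library totals (0.0327) and 1 surrogate variable (0.00311) also called the change at 45 min. The call at 405 min was kept in 8 of 11 alternative fits and lost with 1 surrogate variable among others (0.32, adjusted p = 0.0644), and also without control replicate 2 (0.50, adjusted p = 0.109), control replicate 3 (0.44, adjusted p = 0.12), or tunicamycin replicate 2 (0.51, adjusted p = 0.131) or 3 (0.55, adjusted p = 0.114, all edgeR). At 45 min the gene became called without control replicate 1, at 0.95 (adjusted p = 0.0107, edgeR). A copy of the Zfp36l1 transcript on chrX:35533066-35536622 matches 99.9% of it at 93.9% identity, so some reads could be counted at either locus.

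Zfp36l2, at chr17:84583269-84587287 with 1 intron, fell in 3 of the 5 stress groups. It stood at 516, 364 and 359 CPM in the control, at 453, 698 and 281 CPM at 45 min of HS, and at 151, 204 and 182 CPM at 135 min of HS. The 45 min group spread on both sides of the control, while all 3 samples at 135 min lay below it. The log2 fold change was 0.21 at 45 min (SE 0.352, adjusted p = 0.708, edgeR), and -1.21 at 135 min (SE 0.234, adjusted p = 0.0271, edgeR). The value at 45 min had no stable sign, being -0.12 with a GC offset, -0.40 with 1 surrogate variable and -0.17 without HS replicate 2. The call at 135 min was kept in 11 of 12 alternatives and lost without control replicate 2 (-1.29, adjusted p = 0.111), control replicate 3 (-1.30, adjusted p = 0.118) or HS replicate 3 (-1.22, adjusted p = 0.147, all edgeR).

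With tunicamycin Zfp36l2 was at 195, 195 and 204 CPM at 45 min, 706, 465 and 362 CPM at 135 min and 142, 191 and 181 CPM at 405 min. The level was thus below all control samples at 45 and 405 min and overlapped the control at 135 min. The log2 fold changes were -1.05 (SE 0.169, adjusted p = 0.0162), 0.32 (SE 0.271, adjusted p = 0.563) and -1.25 (SE 0.193, adjusted p = 0.00129) by edgeR. The change at 405 min was called in all 11 alternatives and in all 6 fits that left out a library. The change at 45 min was called in 10 of 11 alternatives, but leaving out any library other than control replicate 1 gave an adjusted p between 0.053 and 0.108 (edgeR) at log2 fold changes of -1.14 to -1.04. A stretch on chr7:88565353-88566233 matches 24.9% of its transcript at 99.8% identity.

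Zfp36, which encodes tristetraprolin, at chr7:29161803-29164247 with 1 intron, was not called against control at any time. Its levels were 21.6, 25.8 and 22.6 CPM in the control, 42.2, 43.1 and 28.8 CPM at 45 min of HS, and 26.5, 56.4 and 45.5 CPM at 135 min of HS. All 6 HS samples lay above the control, with log2 fold changes of 0.70 (adjusted p = 0.232) and 0.87 (adjusted p = 0.103, edgeR). At 45 min the change was 0.87 without HS replicate 3 (adjusted p = 0.00657, edgeR), in a fit that called 2737 of all genes as higher and 3049 as lower. It was 0.28 with 1 surrogate variable (adjusted p = 0.321, edgeR) and 0.33 without HS replicates 1 and 2, which leaves 1 HS library. At 135 min it was 1.12 without HS replicate 1 (adjusted p = 0.0199, edgeR), in a fit that called 1535 of all genes as higher and 932 as lower. With 1 surrogate variable it was 0.57 (adjusted p = 0.00924, edgeR).
The gene was at 16.5, 15.4 and 17.3 CPM at 45 min of tunicamycin, 45.2, 34.9 and 35.7 CPM at 135 min and 21.6, 29.5 and 27 CPM at 405 min. It was below every control sample at 45 min, above every one at 135 min and overlapped them at 405 min. The log2 fold changes were -0.49 (adjusted p = 0.0744), 0.74 (adjusted p = 0.123) and 0.18 (adjusted p = 0.37, edgeR). At 45 min the fall was called without control replicate 1 (-0.55, adjusted p = 0.0248, edgeR).

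**Figure D2:**
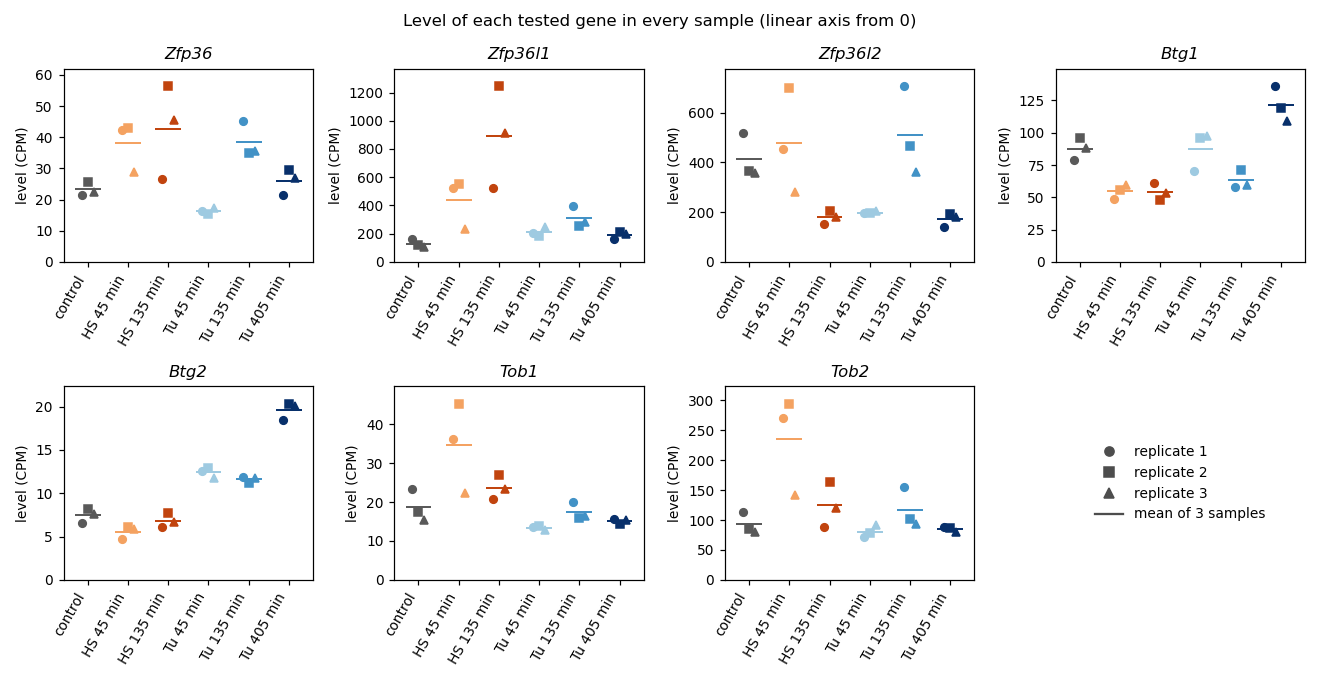
Level in CPM (vertical axis, linear from 0) of the 7 tested genes in each of the 18 samples, with 1 symbol per replicate number and a line at the mean of each group of 3. The 3 Btg2 samples at 405 min of tunicamycin (18.5 to 20.3 CPM) and the Zfp36l1 samples at 135 min of HS (521 to 1245 CPM) are above all control samples.

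Within the ZFP36 family, control cells held mostly Zfp36l2, which made up 67.4% ± 1.49 of the family's summed RPKM (SD, n = 3), with 24.7% ± 1.21 for Zfp36l1 and 7.88% ± 1.89 for Zfp36. At 135 min of HS the shares were 14.4% ± 3.6 for Zfp36l2 and 79.1% ± 3.64 for Zfp36l1, and the family sum was 274 ± 72.8 against 147 ± 24.1 RPKM in the control (SD, n = 3). At 405 min of tunicamycin Zfp36l1 made up 50.3% ± 0.427 and Zfp36l2 38.1% ± 0.33 of a sum of 103 ± 12.1 RPKM. Zfp36 stayed the smallest of the 3 in every group, with a mean share of 6.49% to 11.6%.

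The ratio of Zfp36l1 to Zfp36l2 was taken within each library, where depth cancels. Its log2 value in RPKM was -1.45 ± 0.0791 in the control (SD, n = 3), 0.114 ± 0.29 and 2.49 ± 0.418 at the earlier and later times of HS, and 0.332 ± 0.19, -0.442 ± 0.288 and 0.399 ± 0.0242 at 45, 135 and 405 min of tunicamycin. In all 5 stress groups every sample lay above every control sample, with differences from 1.01 at 135 min of tunicamycin to 3.93 at 135 min of HS. The two-sided exact permutation p was 0.1 for each of the 5, the smallest that 3 against 3 allow, and 0.1 after Benjamini-Hochberg adjustment over the 5, so this permutation test cannot pass 0.05 with 3 against 3.

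**Figure D3:**
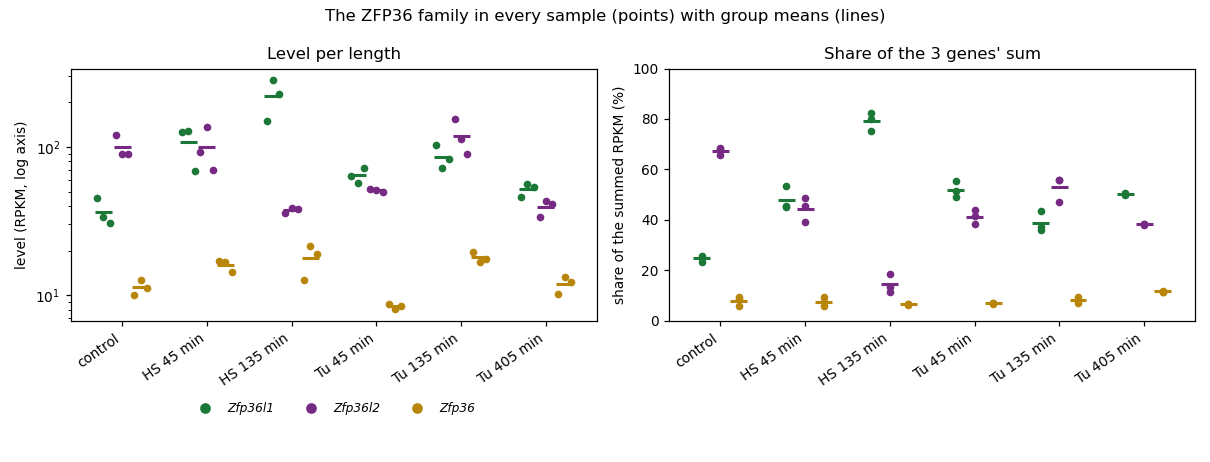
Left, RPKM on a log axis, and right, share of the family's summed RPKM in percent, for Zfp36l1, Zfp36l2 and Zfp36 in each sample (points) with the group mean (lines). Zfp36l2 has the largest share in the control (67.4%) and Zfp36l1 at 135 min of HS (79.1%).

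Of the BTG genes, Btg2, a known p53 target that is induced by growth signals and stress, was called at 45 and 405 min of tunicamycin. The gene lies at chr1:135971442-135975732 with 1 intron and was at 6.58, 8.18 and 7.59 CPM in the control, 4.7, 6.08 and 5.85 CPM at 45 min of HS, and 6.06, 7.67 and 6.63 CPM at 135 min of HS. The 3 samples at 45 min of HS were below the control and those at 135 min overlapped it, with log2 fold changes of -0.43 (adjusted p = 0.325) and -0.14 (adjusted p = 0.732, edgeR). Under tunicamycin it was at 12.6, 12.9 and 11.8 CPM at 45 min, 11.9, 11.2 and 11.8 CPM at 135 min and 18.5, 20.3 and 20.1 CPM at 405 min. All 9 of these samples lay above all control samples, and those at 405 min above the other 6. The log2 fold changes were 0.76 (SE 0.158, adjusted p = 0.0368), 0.66 (SE 0.197, adjusted p = 0.162) and 1.42 (SE 0.142, adjusted p = 0.000168) by edgeR. The rise at 405 min was called in all 11 alternatives and in all 6 fits without a library. At 45 min the call was kept in 9 of 11 alternatives but in just 1 of 6 fits without a library, and without any library other than control replicate 1 the log2 fold change was 0.72 to 0.83 with an adjusted p of 0.0744 to 0.201 (edgeR).

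Btg1, at chr10:96079635-96085443 with 1 intron, binds the CCR4-NOT deadenylases like Btg2 but had another course. Its control levels were 78.9, 95.7 and 87.8 CPM, and under HS it was at 48.9, 55.4 and 59.8 CPM at 45 min and 61.3, 47.6 and 53.7 CPM at 135 min. All 6 HS samples were below the control, at log2 fold changes of -0.68 (adjusted p = 0.227) and -0.69 (adjusted p = 0.0685, edgeR). Both changes passed the threshold without 1 library, -0.75 without HS replicate 3 at 45 min (adjusted p = 0.012) and -0.79 without HS replicate 1 at 135 min (adjusted p = 0.0372, edgeR). Over all genes the first of these fits called 2737 as higher and 3049 as lower, and the second 1535 and 932. With a GC offset the changes of Btg1 were smaller, -0.13 at 45 min (adjusted p = 0.667) and -0.29 at 135 min (adjusted p = 0.298, edgeR).
With tunicamycin Btg1 was at 70.4, 95.6 and 97.2 CPM at 45 min, 58.3, 71.4 and 59.4 CPM at 135 min and 136, 119 and 109 CPM at 405 min. The groups overlapped at 45 min, lay below the control at 135 min and above it at 405 min. The log2 fold changes were 0.02 (adjusted p = 0.956), a sign that turned with DESeq2 size factors, -0.45 (adjusted p = 0.224) and 0.49 (SE 0.131, adjusted p = 0.0155) by edgeR. The call at 405 min was kept in 10 of 11 alternatives and lost without control replicate 3 (0.47, adjusted p = 0.0586) or tunicamycin replicate 1 (0.38, adjusted p = 0.0608) or 2 (0.50, adjusted p = 0.055, all edgeR). Part of the transcript, 25.8%, matches chrX:14942304-14943608 at 98% identity.

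Btg3, at chr16:78360105-78377030, was at or near the counting floor. The libraries held 2, 3 and 4 reads in the control, 0, 5 and 0 at 45 min of HS, 0 in all 3 at 135 min of HS, and, with tunicamycin, 1, 4 and 3 at 45 min, 0, 2 and 0 at 135 min and 4, 8 and 4 at 405 min. These counts overlap between most groups, a count of 0 allows a level of up to 3 reads, and no fold change or test is given. An intronless copy at chr17:50837850-50839209 matches 96% of the transcript at 99.9% identity, so a read could come from either locus and the level of Btg3 is uncertain in these files.

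The TOB genes had their highest group mean at 45 min of HS. Tob2, at chr15:81678700-81688756 with 1 intron, was at 114, 84.5 and 80.1 CPM in the control, 270, 294 and 142 CPM at 45 min of HS, and 88.8, 164 and 121 CPM at 135 min of HS. All samples at 45 min lay above the control, and those at 135 min overlapped it. The log2 fold change was 1.34 at 45 min (SE 0.316, adjusted p = 0.227) and 0.42 at 135 min (SE 0.272, adjusted p = 0.322, edgeR). The first was 1.60 without HS replicate 3 (adjusted p = 0.0017, edgeR), in a fit that called 2737 of all genes as higher and 3049 as lower. It was 0.71 with 1 surrogate variable (adjusted p = 0.00171, edgeR) and 0.64 without HS replicates 1 and 2, which leaves 1 HS library. Under tunicamycin the gene was at 71.5, 78.3 and 91.7 CPM, then 155, 101 and 94.2 CPM, then 88.8, 86.5 and 79.3 CPM at the 3 times, overlapping the control at each. The changes were -0.19, 0.34 and -0.11 on the log2 scale (adjusted p = 0.52, 0.465 and 0.597, edgeR).

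Tob1, at chr11:94072768-94076806 with 1 intron, was at a lower mean RPKM than Tob2 in every group. It was at 23.4, 17.5 and 15.4 CPM in the control, 36.3, 45.2 and 22.3 CPM at 45 min of HS and 20.8, 27 and 23.4 CPM at 135 min of HS. Both HS groups overlapped the control, at log2 fold changes of 0.88 (adjusted p = 0.234) and 0.34 (adjusted p = 0.375, edgeR). The change at 45 min was 1.12 without HS replicate 3 (adjusted p = 0.00806, edgeR), in a fit that called 2737 of all genes as higher and 3049 as lower. It was 1.35 with a GC offset (adjusted p = 0.161) and 0.46 with 1 surrogate variable (adjusted p = 0.0696, edgeR). Without HS replicates 1 and 2, which leaves 1 HS library, it was 0.27. With tunicamycin the level was 13.5, 13.8 and 12.9 CPM at 45 min, 20, 16 and 16.3 CPM at 135 min and 15.6, 14.4 and 15.3 CPM at 405 min. The samples at 45 min lay below all control samples and those of the later times overlapped them. The log2 fold changes were -0.47 (adjusted p = 0.161), -0.09 (adjusted p = 0.861) and -0.29 (adjusted p = 0.211, edgeR), and the sign at 135 min turned with a GC offset.

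The time points were also compared with each other. From 135 to 405 min of tunicamycin 5 of the 7 genes were called, against 43.7% of all genes. Zfp36l2 fell by 1.60 on the log2 scale (SE 0.258, adjusted p = 0.00225), Zfp36l1 by 0.73 (SE 0.202, adjusted p = 0.0211) and Zfp36 by 0.59 (SE 0.176, adjusted p = 0.0288, edgeR). Btg1 rose by 0.92 (SE 0.144, adjusted p = 0.00196) and Btg2 by 0.73 (SE 0.134, adjusted p = 0.00381, edgeR). All 3 ZFP36 genes thus moved down and both tested BTG genes up between these times, and the changes of Zfp36l2, Btg1 and Btg2 were called in all 12 alternatives and all 6 fits without a library. Those of Zfp36 and Zfp36l1 were lost without any 1 of the 3 samples at 405 min, with adjusted p-values of 0.0535 to 0.0951 and 0.0504 to 0.0833 (edgeR).

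From 45 to 135 min of tunicamycin 1 of the 7 was called, against 0.291% of all genes. Zfp36 rose by 1.24 (SE 0.151, adjusted p = 0.0431, edgeR), and Zfp36l2 had a change of 1.37 (SE 0.235, adjusted p = 0.0813, edgeR). The call for Zfp36 held in 10 of 12 alternatives and in just 1 of 6 fits without a library, the one without replicate 1 at 135 min, with adjusted p-values of 0.15 to 0.391 (edgeR) in the other 5. Without that same replicate Zfp36l2 was at 1.09 (adjusted p = 0.0172, edgeR). The 3 samples of both genes at 135 min of tunicamycin thus lay above all samples at 45 and at 405 min.

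Between 45 and 135 min of HS none of the 7 was called by edgeR's quasi-likelihood test, which called 0% of all genes, while 2 of the 7 and 1481 genes had an unadjusted p under 0.05. DESeq2 called 194 genes as higher and 209 as lower there and the exact test 108 and 91, each with 1 of the 7. Zfp36l2 had the largest difference, -1.47 (SE 0.354, adjusted p = 0.236, edgeR), with all 3 samples at 135 min below those at 45 min.

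HS and tunicamycin were compared at matched times. At 45 min none of the 7 was called, against 0.204% of all genes. All 7 had an unadjusted p under 0.05, as did 24% of all genes. DESeq2 called 6 of the 7, and over all 12731 genes 748 as higher and 379 as lower. The exact test called 5 of the 7, and over all genes 456 as higher and 298 as lower. HS minus tunicamycin was 1.55 for Tob2 (adjusted p = 0.0925), 1.37 for Tob1 (adjusted p = 0.103), 1.27 for Zfp36l2 (adjusted p = 0.132), 1.21 for Zfp36 (adjusted p = 0.0807) and 1.04 for Zfp36l1 (adjusted p = 0.162, edgeR). It was -1.17 for Btg2 (adjusted p = 0.0807) and -0.68 for Btg1 (adjusted p = 0.135, edgeR). The ZFP36 and TOB genes were thus all on the higher side under HS and both BTG genes on the lower side. Without HS replicate 3 all 7 passed the threshold, with adjusted p-values from 0.000601 to 0.00897 (edgeR). Over all 12731 genes tested the fit without HS replicate 3 called 3416 as higher and 3671 as lower, so 7 of 7 is not a result about these genes. That fit rests on HS replicates 1 and 2, and with HS replicate 3 in their place none passed, at 0.17 for Zfp36l1, 0.52 for Zfp36l2, 0.75 for Tob1, 0.83 for both Zfp36 and Tob2, -0.54 for Btg1 and -1.08 for Btg2 (adjusted p = 0.174 to 0.752, edgeR). With a GC offset Btg1 was at -0.22 (adjusted p = 0.568, edgeR).

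At 135 min 1 of the 7 was called between HS and tunicamycin, against 2.12% of all genes. Zfp36l2 was lower under HS, at -1.54 (SE 0.278, adjusted p = 0.0463, edgeR), in 10 of 12 alternatives and in 0 of 6 fits without a library, where the adjusted p was 0.0641 to 0.236 (edgeR). Zfp36l1 was higher under HS by 1.50 (SE 0.35, adjusted p = 0.078, edgeR) and reached an adjusted p of 0.0355 (edgeR) at 1.77 without HS replicate 1. The differences for Zfp36 (0.12, adjusted p = 0.868) and Tob2 (0.07, adjusted p = 0.927, edgeR) turned sign when library totals replaced TMM.

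Libraries of a group differed in a way that followed GC content, and several members moved with it. Of the spread within groups, 68.1% lay on 1 axis of genes whose weights had a Spearman correlation of 0.704 with transcript GC content across genes, which are not independent replicates. As a measure for each library, the mean log2 level of the GC-richest quartile of genes minus that of the GC-poorest, relative to control, was called its GC tilt. The tilt ran from -0.267 to 0.523 in the control and was over 1 in 4 libraries, replicates 1 and 2 at 45 min of HS (1.53 and 1.74), replicate 2 at 135 min of HS (1.84) and replicate 1 at 135 min of tunicamycin (1.17). In each of these groups the libraries over 1 also had the highest levels of Zfp36l1, Tob1 and Tob2. The axis weights of Zfp36l1 (1.09), Tob2 (0.901), Zfp36l2 (0.812), Zfp36 (0.635) and Tob1 (0.574) were positive, and those of Btg2 (0.0488) and Btg1 (-0.206) were near or below 0. At 135 min of HS, where 1 of the 4 libraries was left out, the calls against control were kept, 2 of 7. At 45 min of HS, where 2 were left out, the log2 fold changes of Zfp36l1, Tob2, Tob1 and Zfp36 were 0.90, 0.64, 0.27 and 0.33 in place of 1.76, 1.34, 0.88 and 0.70, and that of Zfp36l2 was -0.53 in place of 0.21. A GC offset in place of leaving libraries out gave 1.95, 1.15, 1.35, 0.45 and -0.12 for the same 5 genes in that order, and moved Btg1 from -0.68 to -0.13. Most HS values at 45 min thus changed with the handling of the tilt. Replicate 3, the HS library kept there, also had the least Hspa1b, 46 CPM against 280 and 223 CPM in replicates 1 and 2. Hsph1, another heat shock gene, ran otherwise, at 504, 292 and 499 CPM in replicates 1, 2 and 3. Whether the strength of the HS response differed between these libraries was not tested.

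**Figure D4:**
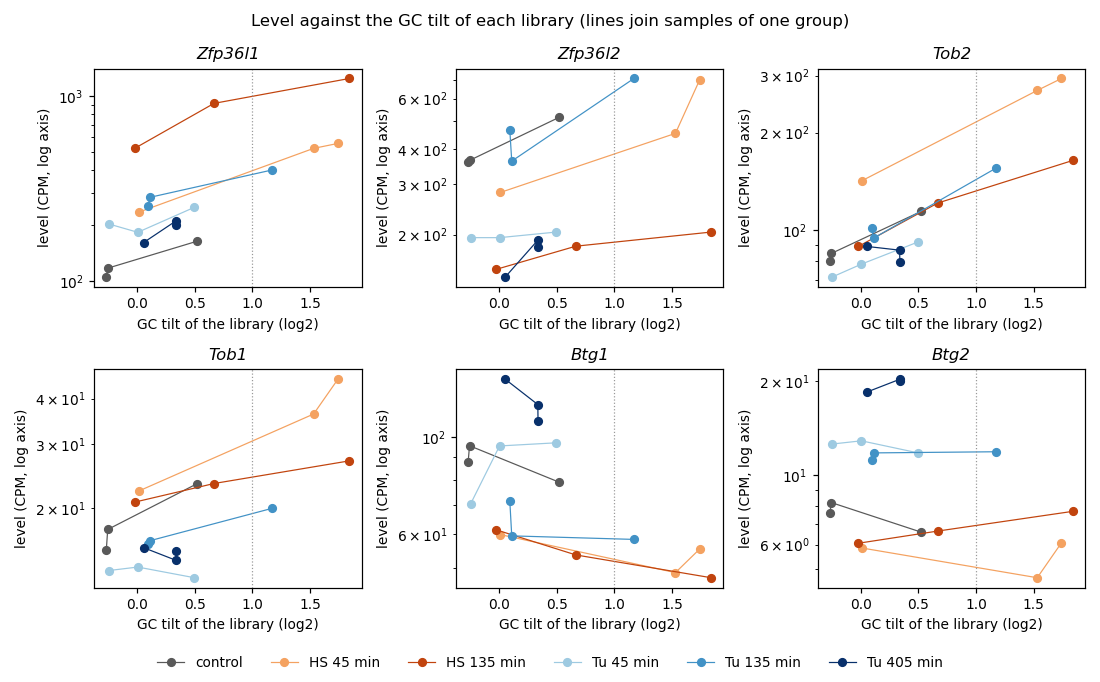
Level in CPM (vertical log axis) against the GC tilt of the library (horizontal axis, log2, dotted line at 1) for 6 genes, with lines joining the 3 samples of a group. Zfp36l1 and Tob2 lie higher in the libraries with a tilt over 1 than in the others of the same group, whereas the Btg2 groups at 405 min of tunicamycin and in the control stay apart at like tilts.

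The genes whose levels ran most like each member over the 18 samples were listed as a description, by Pearson r of log2 CPM among 9377 genes, and the points share groups and the GC axis. Closest to Zfp36l1 were Rere (0.97), Col5a1 (0.964) and Zfp652 (0.962). Closest to Zfp36l2 were Dusp9 (0.966), Ankrd13c (0.92) and Fgfrl1 (0.91), and closest to Zfp36 were Aes (0.912), Ppt2 (0.909) and Pygo2 (0.902). Each ZFP36 gene thus had its own nearest genes. Btg1 ran closest to AA408296 (0.936), Dus2l (0.928) and Mccc1 (0.915), and Btg2 to 9430008C03Rik (0.951), Pvr (0.925) and Tnfaip2 (0.921). Tob1 was closest to Ankrd10 (0.959), 2700081O15Rik (0.954) and Pdxp (0.94), and Tob2 to Hic1 (0.975), 2700081O15Rik (0.967) and Bahd1 (0.966). Among the members themselves Tob1 and Tob2 were the most alike (0.929) and Zfp36l1 and Btg1 the least (-0.763).

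The rest of the decay machinery, which the members work through, was examined in lists of its parts. Of the 11 CCR4-NOT genes 1 was induced and 4 repressed at 405 min of tunicamycin and 1 was repressed at 135 min of HS, where 23.3% and 23.5% of all genes were called in the first comparison and 2.64% were repressed in the second. Neither share stands as a result about the complex. Cnot1, the scaffold of the complex, fell from 323 ± 4.45 CPM in the control to 121 ± 16.3 CPM (SD, n = 3) after 405 min with tunicamycin, or by 1.40 on the log2 scale (adjusted p = 0.000132, edgeR). The catalytic subunit gene Cnot6l changed by -1.81 (adjusted p = 0.00106), while Cnot3 rose by 0.84 (adjusted p = 0.00166, edgeR). Cnot6, a paralog of Cnot6l, changed by -1.58 at 135 min of HS (adjusted p = 0.021, edgeR). The list's median at 405 min was -0.34 beside -0.01 over all genes.

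In the lists of other decay steps the calls came at 405 min of tunicamycin, the comparison with the most calls over all genes (23.3% induced and 23.5% repressed), and the counts below are read against those shares. Of 19 decapping genes 3 were induced and 7 repressed, among them Dcps (0.75, adjusted p = 0.00732) and Lsm14a (0.63, adjusted p = 0.00732) upwards and Lsm6 (-1.26, adjusted p = 0.000236) and the decapping enzyme Dcp2 (-1.26, adjusted p = 0.000179, edgeR) downwards. Of 15 exosome genes 3 were induced, with Exosc5 (1.19, adjusted p = 0.00229) and Exosc1 (0.96, adjusted p = 0.00109, edgeR) the largest, and Wdr61 was repressed (-0.72, adjusted p = 0.00418, edgeR). Of 9 genes of other deadenylases and poly(A) binding, Paip2 rose (0.46, adjusted p = 0.0225) and Pan3 fell (-1.16, adjusted p = 0.00151, edgeR). The exosome and poly(A) lists had a smaller share of calls than all genes, and neither direction held for a whole list.

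Among 11 tested genes of other proteins that bind AU-rich elements or 3′ UTRs, 2 were induced and 3 repressed at 405 min of tunicamycin, near the 23.3% and 23.5% of all genes. Hnrnpd, which encodes the AU-rich element binding protein AUF1, rose by 0.60 (adjusted p = 0.0439) and Tia1 by 0.49 (adjusted p = 0.00776, edgeR). The roquin genes Rc3h2 (-0.98, adjusted p = 0.0343) and Rc3h1 (-0.86, adjusted p = 0.0307, edgeR) fell. Of the 5 genes for kinases and a phosphatase that act on ZFP36 proteins, 4 were repressed at that time (23.5% of all genes were), including Mapk14, the gene of p38α (-1.20, adjusted p = 0.000341), and Mapkapk3 (-0.78, adjusted p = 0.00373, edgeR). Mapk14 was also repressed at 45 min of tunicamycin (-0.59, adjusted p = 0.0462, edgeR). Prmt1, an arginine methyltransferase that BTG1 and BTG2 bind, fell from 486 ± 83.9 CPM in the control to 243 ± 31 CPM (SD, n = 3) at 135 min of HS (adjusted p = 0.0362, edgeR) and to 280 ± 28.2 CPM at 45 min of tunicamycin (adjusted p = 0.0344, edgeR).

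Of 17 known AU-rich targets of ZFP36 proteins 10 were read in every sample and tested. At 135 min of HS 3 were induced (4.75% of all genes were), with Ccl2, a chemokine, at 1.95 (adjusted p = 0.0277) and Vegfa, a vascular growth factor, at 1.77 (adjusted p = 0.0122, edgeR) the largest. At 45 min of tunicamycin, where 4.01% of all genes were induced and 2.17% repressed, 3 were induced, led by Myc (1.85, adjusted p = 0.00122) and Vegfa (1.83, adjusted p = 0.00122), and Dusp1 was repressed (-0.98, adjusted p = 0.00869, edgeR). Fos (2.14, adjusted p = 0.0457) and Vegfa (1.39, adjusted p = 0.0457, edgeR) were induced at 135 min of tunicamycin (0.126% of all genes). At 405 min, against 23.3% of all genes induced and 23.5% repressed, 3 were induced, with Myc at 2.26 (adjusted p = 2.31e-05) and Vegfa at 2.13 (adjusted p = 1.19e-05), and 4 repressed, with Notch1 at -1.96 (adjusted p = 0.00253) and Ptgs2 at -1.51 (adjusted p = 0.00109, edgeR). Vegfa was thus induced in all 4 comparisons with control in which edgeR's quasi-likelihood test called any gene. Whether any of these changes follows from the level of a ZFP36 gene was not tested.

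**Figure D5:**
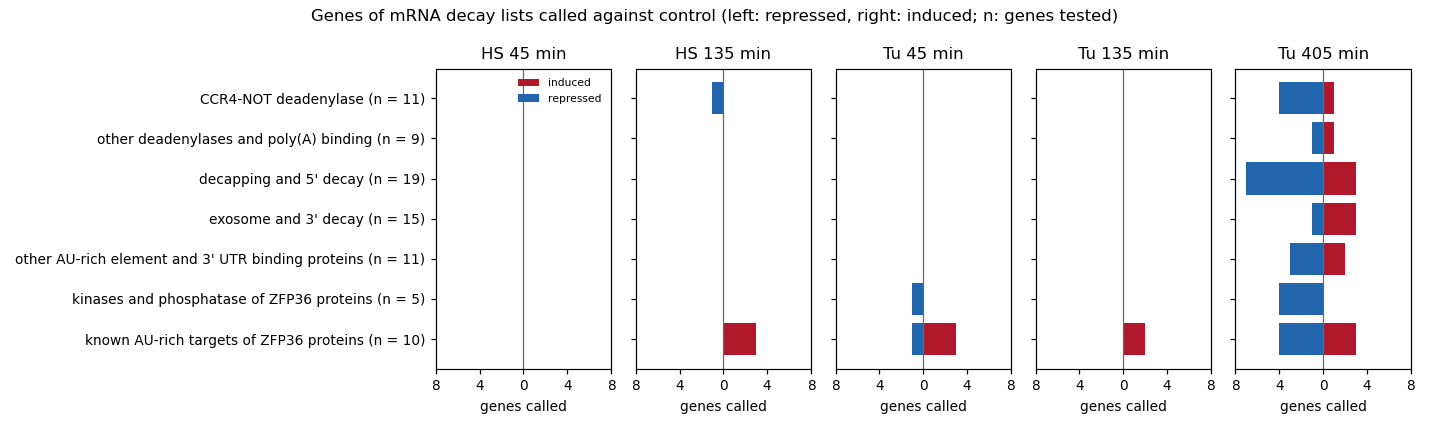
Number of genes called as repressed (left of 0) or induced (right of 0) against control by edgeR's quasi-likelihood test in 7 lists of decay factors and targets, by stress group, with the number of genes tested in each list after its name. All lists have calls at 405 min of tunicamycin, and at 45 min of HS that test called 0 genes, where DESeq2 called 386 as higher and 65 as lower over all genes.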

How the data were processed

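mRNA-seq of 18 samples in 6 groups was analysed. Poly(A) RNA was sequenced on an Illumina HiSeq, and the authors used the DNAnexus platform to align the reads to mm9 and count them per RefSeq gene. They used more than 1 library preparation kit, and which library used which is not given in the sources used here, nor are the aligner, the counter and strandedness. The authors deposited, for each sample and gene, an unnormalized estimated count and the RPKM value they made from it. Of the low estimated counts, 17.7% to 23.2% per sample were not whole, and estimated counts were rounded before testing. The deposited files also hold 2 other scalings of the RPKM, which were not used.

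Each pair of groups was fitted with edgeR 4.0.16 (R 4.3.3), TMM and the quasi-likelihood test, over 12731 genes (those read in all samples, 1 read or more), with Benjamini-Hochberg adjustment and a threshold of 0.05. The script was tested on simulated counts that held no GC axis within groups, unlike these libraries. The surrogate variable and GC offset fits were not part of that test. The standard error came from the fold change and its F statistic. Depth was 33415592 to 66478268 reads per sample, and members other than Btg3 had at least 246 reads in every sample. The spread of 3 samples was not always wider than counting error. For Btg2 at 135 min of tunicamycin the SD was 0.327 CPM at 430 to 600 reads, within counting error. Replicates differed by a chi-square per degree of freedom of 16.4 to 911 over 10919 genes, so none was counted as a duplicate.

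The genes named are all 8 members, 4 stress controls, and in each comparison with control the 2 largest called rises and falls of each decay list. Hsph1 and Ddit3, the other stress controls, had log2 fold changes of 3.33 at 135 min of HS and 5.22 at 405 min of tunicamycin. For likeness, the 3 genes of highest r with a mean of at least 5 CPM were named. Members and lists were chosen with earlier results of these data known. Of 20207 genes, 19513 had a GC content from GENCODE vM1 transcripts on mm9. Copies were sought with minimap2 2.31. Of the 4 blood markers 3 were below 1 RPKM in all samples, and the list summed to 3.74 to 7.71 RPKM.

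The alternatives were DESeq2 1.42.0 (Wald test, and its size factors), library totals, edgeR's exact test, 2 other filters, a shared fit of all groups, 1 surrogate variable (sva 3.50.0), the replicate number as a block, a GC offset (lowess, span 0.3) without and with the block, the 4 high-tilt libraries left out, and each library left out in turn. Samples with the same replicate number, which the labels give, deviated together at 135 min of tunicamycin against control (correlations of 0.295, 0.251 and 0.207). This was 1 of 10 comparisons examined, and replicate 1 had the highest GC tilt in both groups (1.17 and 0.523). What a number marks is not given, so the main fit took no pairing and the block stayed an alternative. Python 3.11.15 (scipy 1.17.1, pandas 2.3.3, numpy 2.4.6, matplotlib 3.10.9) served for all else.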

Additional observations from a re-analysis of the deposited data

Results flagged for a closer look

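A difference between time points or between stresses that itself passed the test at an adjusted p under 0.05 (edgeR's quasi-likelihood test) was found for 5 of the members in 7 instances. Between 45 and 135 min of tunicamycin Zfp36 rose by 1.24 on the log2 scale. From 135 to 405 min, fold changes under tunicamycin were, as log2, -0.59 for Zfp36, -0.73 for Zfp36l1, -1.60 for Zfp36l2, 0.92 for Btg1 and 0.73 for Btg2. At 135 min Zfp36l2 differed between HS and tunicamycin by -1.54, with HS the lower. The same control samples stand in every comparison with control, but not in these 7. All 7 instead share the samples at 135 min of tunicamycin, so they are not independent of each other. Replicate 1 of that group had a GC tilt of 1.17.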

How the results depend on the processing

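Of the 70 fold changes of members, 701 of 826 fits under other settings kept direction and side of the threshold, 18 lost a call, 94 gained one and 13 turned sign. Of 420 fits leaving out a library, 348 kept both, 40 lost a call, 18 gained one and 14 turned sign. RPKM and CPM were compared for 35 values, and no called change had another direction in RPKM than in CPM. Zfp36l2 at 45 min of HS, which was not called, did differ. Its mean was 99 against 99.4 RPKM in the control, but 477 against 413 CPM. Members called (of 7) against control changed as follows. Brackets hold the genes called as higher and as lower over all 12731 tested in the same fit. At 45 min of HS there were 2 by DESeq2 (386 and 65) and 2 by the exact test (251 and 39) in place of 0 (0 and 0). The shared fit gave 4 (925 and 420) and 1 surrogate variable 3 (564 and 590). Leaving out a library gave 0 to 5, with the 5 coming without HS replicate 3 (2737 and 3049). At 135 min of HS the shared fit (1829 and 1414) and the surrogate variable (2448 and 2678) each gave 4. Fits without a library gave 0 to 4, with the 4 coming without HS replicate 1 (1535 and 932). At 45 min of tunicamycin DESeq2 gave 4 (972 and 871) and the surrogate variable 6 (1690 and 1592). Fits without a library gave 0 to 4, with the 4 coming without control replicate 1 (1391 and 1108). At 135 min of tunicamycin DESeq2 gave 3 (329 and 336), the exact test 2 (305 and 242) and the shared fit 1 (233 and 178). The surrogate variable gave 4 (1290 and 1468) and the GC offset 1 (186 and 130). At 405 min leaving out a library gave 2 to 4 (2014 to 4017 and 2053 to 3880). For 135 against 45 min of HS, DESeq2 (194 and 209), the exact test (108 and 91) and the shared fit (459 and 446) gave 1. The surrogate variable gave 3 (1719 and 1566). For 135 against 45 min of tunicamycin, DESeq2 (323 and 294), the exact test (164 and 169) and the shared fit (40 and 65) gave 2. The GC offset (139 and 175) and the high-tilt libraries left out (107 and 111) also gave 2. The surrogate variable gave 4 (692 and 774), and leaving out a library 0 to 2. For 405 against 135 min of tunicamycin the shared fit gave 3 (2206 and 2299), and leaving out a library 3 to 5 (1692 to 4094 and 1855 to 4032). For HS against tunicamycin at 45 min, DESeq2 (748 and 379), the shared fit (719 and 551) and the surrogate variable (730 and 1096) gave 6. The exact test gave 5 (456 and 298) and the GC offset 3 (247 and 337). Leaving out a library gave 0 to 7, with the 7 coming without HS replicate 3 (3416 and 3671). At 135 min, library totals (209 and 275), the exact test (560 and 373) and the GC offset (771 and 729) gave 2. DESeq2 (715 and 541), the shared fit (998 and 773) and the surrogate variable (2242 and 2157) gave 3. The high-tilt libraries left out also gave 3 (865 and 668), and leaving out a library 0 to 1. The high-tilt alternative was chosen after seeing the data. The cause of these changes was not tested.

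With the replicate block, members called were 0 at 135 min of HS (0 and 0) and 0 at 45 min of tunicamycin (21 and 0), with brackets as above. They were 0 for 135 against 45 min of tunicamycin (0 and 0), 3 for 405 against 135 min (1811 and 1939) and 0 for HS against tunicamycin at 135 min (0 and 0). With the GC offset and the block together the count was 1 at 45 min of tunicamycin (319 and 191). It was 0 for 135 against 45 min of tunicamycin (0 and 0) and 0 for HS against tunicamycin at 135 min (0 and 0). Apart from 135 min of tunicamycin against control, where the block left the count at 0, samples sharing a number correlated at -0.774 to 0.751, and in none of these 9 comparisons did all 6 samples correlate best with their own number.

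The fold changes that turned sign were these. Zfp36l2 at 45 min of HS was -0.40 with 1 surrogate variable, -0.12 with the GC offset, -0.16 with the GC offset and the block, -0.53 without high-tilt libraries and -0.17 to 0.48 leaving out a library. Btg1 at 45 min of tunicamycin was -0.0015 with DESeq2 size factors, -0.0016 by the Wald test and -0.06 to 0.15 leaving out a library. Tob1 at 135 min of tunicamycin was 0.09 with the GC offset, 0.11 with the GC offset and the block and -0.22 to 0.10 leaving out a library. Zfp36 at 405 min was -0.01 with 1 surrogate variable, and Tob2 at 405 min was -0.23 to 0.07 leaving out a library. For 135 against 45 min of HS, Zfp36 was -0.10 to 0.36 and Btg1 -0.16 to 0.05 leaving out a library. For HS against tunicamycin at 135 min, Zfp36 was -0.06 with library totals, -0.02 with 1 surrogate variable and -0.09 to 0.37 leaving out a library, and Tob2 was -0.10, -0.11 and -0.14 to 0.31 in the same order. At this depth Btg3 alone was at or near the counting floor.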
